A study of Mus musculus with 15 samples.

Results

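Germinal centre B cells and the plasmablasts that descend from them were compared for 41 genes of the interferon response in the mouse. The genes were listed by symbol, and the list was chosen with earlier results of these data known. All 41 have a row in the deposited expression table of 23420 genes. Of the 41 listed genes, 34 were above 0 in at least 3 of the 15 libraries and could be tested, as were 11190 genes of the table in all. These 34 are called the tested members, and the other 7 (Ifit1, Ifit3, Mx1, Mx2, Oas2, Iigp1 and Ifitm2) are described by their levels. The table holds 3 libraries for each of 5 groups, each library made from 100 sorted cells.

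All groups came from CD45.1+ donor B cells on the C57BL6 background that were heterozygous for B1-8hi, an antibody gene knock-in that lets B cells bind the hapten NP. The donor cells were moved into C57BL6 mice that were then immunized with NP-CGG, the hapten on a carrier protein, in complete Freund's adjuvant. Lymph node cells were sorted on day 12. GC-PB are plasmablasts sorted as CD138hi CD44hi tdTomato+, from donors that also carried the S1pr2-ERT2cre transgene and 1 copy of the ROSA-Ai14 reporter. This drug-inducible Cre is driven by S1pr2, a gene of germinal centre B cells, and the recipients of these cells received tamoxifen on days 6, 7 and 8. The 4 germinal centre groups came from donors heterozygous for a Bcl6-YFP reporter, for which no tamoxifen is stated, and were sorted as B220+ CD38lo GL7hi. Fraction 1 was CXCR4lo CD86hi CD69hi Bcl6lo, Fraction 2 was CXCR4lo CD86hi CD69hi Bcl6hi and Fraction 3 was CXCR4lo CD86hi CD69lo Bcl6hi, all of them light zone cells. DZ, the dark zone cells, were CXCR4hi CD86lo. The reporter, the tamoxifen and the gate all change together with the cell type between GC-PB and Fraction 1, so their parts in a difference cannot be told apart. Animal age is not given in the labels. The replicates are separate library preparations and are not said to come from separate animals, so that p-values measure how far these libraries spread, and that spread may be technical.

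Interferons are secreted proteins that tell cells of a viral or bacterial threat. Type I interferon binds the receptor of Ifnar1 and Ifnar2, whose kinases Jak1 and Tyk2 activate Stat factors such as Stat2. Together with Irf9 these bind a DNA element called ISRE, while interferon gamma acts through the receptor of Ifngr1 and Ifngr2 on an element called GAS. The genes switched on in this way encode sensors of foreign nucleic acid, proteins that block viral replication and GTPases that attack the vacuoles of intracellular microbes. Some of them also have other regulators in B cells, since Irf4 and Irf8 can bind ISRE-like DNA. Bst2 was originally described as a surface antigen of plasma cells and their malignant relatives.

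The promoters of 5 members are shown because they carry the ISRE letters and belong to genes that behaved differently in these libraries. Bst2, Ifitm3, Ddx58 and Igtp had the smallest p among the members that were higher in GC-PB than in Fraction 1 and whose promoter held an ISRE core. Ifit1 has the same letters but was near 0 in every library. The sequences are RefSeq promoters on GRCm38.p6, 250 bases before to 50 bases after the start of the gene, 5′ to 3′ on the strand of the gene, and the capitals mark each ISRE core.
Bst2 (chr8:71537423-71537722, minus strand): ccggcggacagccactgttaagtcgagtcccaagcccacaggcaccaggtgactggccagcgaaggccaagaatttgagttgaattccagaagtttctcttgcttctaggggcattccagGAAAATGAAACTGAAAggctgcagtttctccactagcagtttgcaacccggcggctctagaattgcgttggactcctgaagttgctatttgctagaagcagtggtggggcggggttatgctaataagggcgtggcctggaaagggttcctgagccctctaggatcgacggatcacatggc
Ifitm3 (chr7:141010695-141010994, minus strand): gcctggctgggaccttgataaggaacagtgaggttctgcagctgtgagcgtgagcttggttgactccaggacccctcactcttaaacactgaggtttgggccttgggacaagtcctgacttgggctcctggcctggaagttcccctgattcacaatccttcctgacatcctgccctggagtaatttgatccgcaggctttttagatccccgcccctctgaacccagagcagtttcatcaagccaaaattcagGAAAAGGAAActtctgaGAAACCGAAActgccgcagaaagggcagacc
Ddx58 (chr4:40239776-40240075, minus strand): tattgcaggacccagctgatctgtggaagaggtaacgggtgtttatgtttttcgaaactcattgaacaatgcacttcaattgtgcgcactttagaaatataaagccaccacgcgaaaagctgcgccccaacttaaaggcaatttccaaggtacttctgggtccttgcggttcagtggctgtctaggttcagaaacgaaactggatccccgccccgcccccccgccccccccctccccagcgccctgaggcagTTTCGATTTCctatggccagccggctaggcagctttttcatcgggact
Igtp (chr11:58199306-58199605, plus strand): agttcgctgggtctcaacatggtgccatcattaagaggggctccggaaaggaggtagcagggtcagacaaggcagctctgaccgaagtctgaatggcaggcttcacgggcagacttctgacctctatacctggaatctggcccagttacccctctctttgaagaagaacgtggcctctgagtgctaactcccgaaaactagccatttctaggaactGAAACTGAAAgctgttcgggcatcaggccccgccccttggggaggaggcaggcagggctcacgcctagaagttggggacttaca
Ifit1 (chr19:34640639-34640938, plus strand): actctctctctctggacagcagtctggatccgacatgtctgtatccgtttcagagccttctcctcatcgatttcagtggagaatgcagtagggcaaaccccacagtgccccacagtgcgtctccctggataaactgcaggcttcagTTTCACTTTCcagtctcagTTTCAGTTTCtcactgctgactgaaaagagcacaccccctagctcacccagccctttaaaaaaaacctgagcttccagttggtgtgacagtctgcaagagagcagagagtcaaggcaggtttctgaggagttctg

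The ISRE core searched for was GAAANNGAAA, on both strands. In Bst2 a pair of overlapping cores begins at -130 and -124 from the start of the gene, and in Ifit1 the cores begin at -104 and -85. In Igtp the core begins at -34. In Ifitm3 the cores begin at bases 3 and 20 from the start, counted from 1, and in Ddx58 the core begins at base 3. A core was present in the promoter of 20 of the 31 members with a RefSeq entry (64.5%), against 1079 of 27025 genes with an entry (3.99%) and 3.44% of all 32851 promoters. Among members that were called higher in GC-PB it was present in 10 of 14, and among the tested members that were not it was present in 7 of 14. The GAS letters TTCNNNGAA were present in 12 of 31 members (38.7%), against 9.55% of genes. In 2 members an ISRE core overlapped a GAS match. The promoters of Isg20, Irf7, Irf1, Irf9, Ifi47, Samhd1, Ifit2, Oasl1, Oasl2, Ifi35 and Xaf1 held no ISRE core in this window. Zbp1, Usp18, Rtp4, Parp14, Mx1, Dhx58, Oas2, Ifi27l2a, Mx2 and Iigp1 had no entry. A match of letters is not a measured binding site.

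Levels are given at equal library totals, that is, the deposited signal scaled to a common total of 38594, the median of the totals without the ribosomal RNA precursor Rn45s. They are not corrected for transcript length, so levels of different genes are not compared. The deposited values behave as whole molecules multiplied by a constant of each library, a reading that the labels do not state. On it a library holds 184103 to 376991 molecules, with the fewest in GC-PB (184103 to 216584), and 1 molecule stands for a level of 0.107 to 0.233. In the libraries 9185 to 10132 genes were above 0. The plasmablast markers Sdc1, Prdm1 and Xbp1 averaged 13.6, 7.22 and 218 in GC-PB, against 0.0392, 0.0392 and 4.5 in Fraction 1, while Bcl6 was at 0 in all GC-PB libraries. GC-PB replicate 1 differed most from its own group, with a chi-square per gene of 3.9 and 2.91 against GC-PB replicates 2 and 3, where other pairs within a group gave 1.08 to 1.7. Germinal centre markers summed to 4.89 to 5.78 in GC-PB, 16.4 to 24.3 in Fraction 1, 61.2 to 68.8 in Fraction 2, 76.6 to 84.5 in Fraction 3 and 72.2 to 80.1 in DZ. Xist, the transcript of the inactive X chromosome, was 11.0 to 14.4 in GC-PB and 8.94 to 12.1 in Fraction 1 and 0 in the 9 other libraries, where the Y-linked gene Ddx3y was 3.91 to 6.21. Fraction 1 vs Fraction 2 crosses this divide, and the divide and the fraction cannot be told apart.

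The response as a whole stood highest in the plasmablasts, with Fractions 1 and 2 overlapping at the low end. The summed level of all 41 genes was 199 to 231 in GC-PB, 42.9 to 53.7 in Fraction 1, 51.0 to 62.9 in Fraction 2, 64.4 to 77.9 in Fraction 3 and 82.2 to 88.4 in DZ. Ifi27l2a and Samhd1 carried the steps within the germinal centre. Without this pair the sum was 99.8 to 130 in GC-PB, 29.9 to 35.6 in Fraction 1, 29.7 to 40.0 in Fraction 2, 31.4 to 37.9 in Fraction 3 and 34.8 to 38.1 in DZ, so that the 4 germinal centre groups overlapped and only GC-PB stood apart. In these bulk samples, fewer cells with a transcript and less transcript per cell cannot be told apart. The limma F test over the 5 groups called 19 of the 34 tested members, where it called 45.3% of all tested genes.

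**Figure D1:**
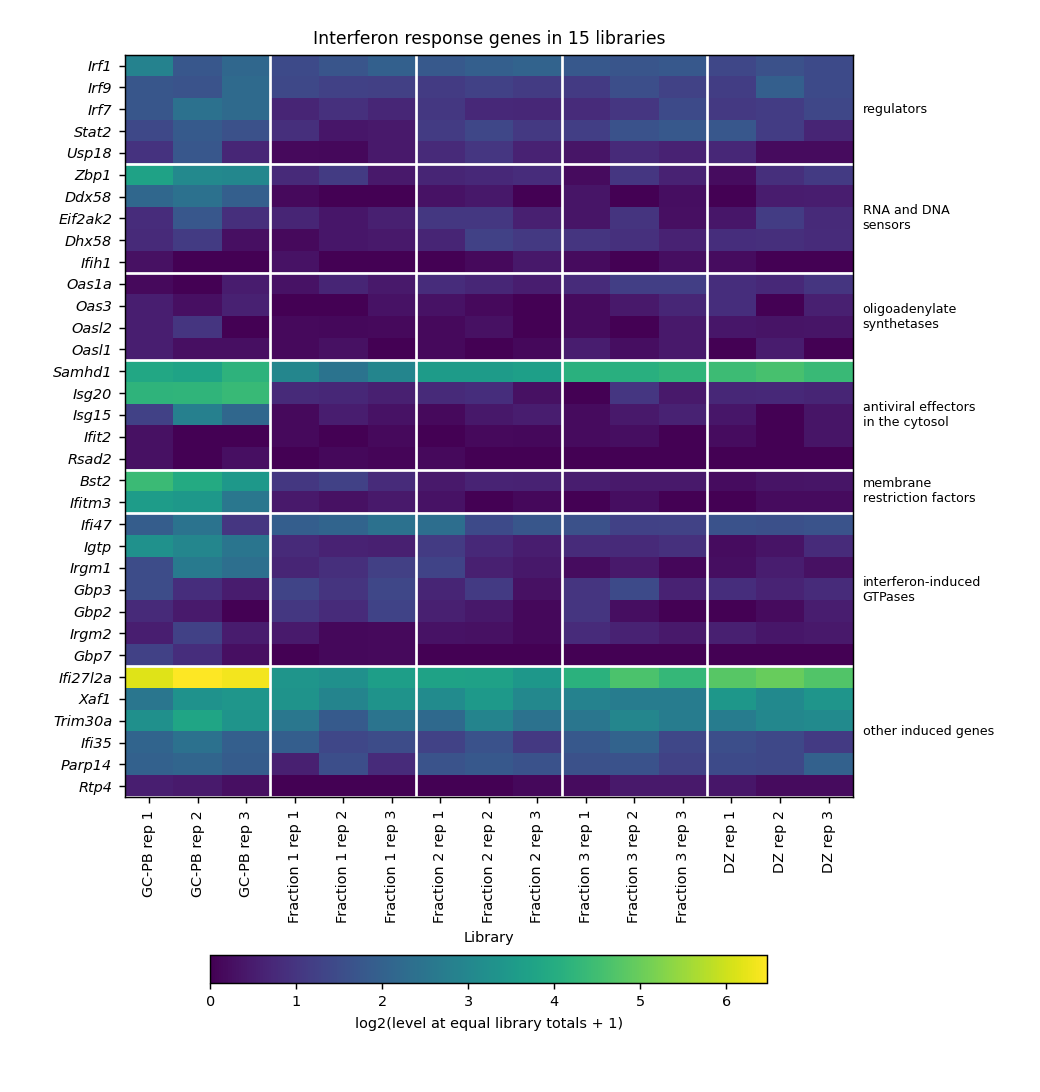
Levels of the 34 tested members, as log2(level at equal library totals + 1), with genes in rows and the 15 libraries in columns, GC-PB first and DZ last. The 3 GC-PB columns are bright for Isg20, Bst2, Ifitm3 and Zbp1 where the 12 other columns are dark, and Ifi27l2a is bright in every column.

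The study asks which germinal centre B cells are prone to become plasma cells, and plasmablasts were set against Fraction 1, the Bcl6-low light zone cells. Of the 34 tested members 19 were higher and 1 was lower in GC-PB than in Fraction 1 by limma, and 14 did not pass. In the same comparison 14.1% of all tested genes were higher and 22.3% were lower, which makes 36.3% called. The median change of the tested members was 0.59 on the log2(level + 1) scale, against -0.06 for all tested genes. In 21 tested members every GC-PB library was above every Fraction 1 library and in 1 member every one was below, where such a separation was seen in 16.1% of all tested genes upward and 26.7% downward. Against all 12 germinal centre libraries, the 3 GC-PB libraries were all higher in 12 of the 34 tested members and all lower in 0, and in 8.8% and 13.3% of all tested genes. These 12 were Isg15, Isg20, Irf7, Bst2, Ifi27l2a, Ddx58, Gbp7, Igtp, Irgm1, Trim30a, Zbp1 and Ifitm3, of which Gbp7 passed the filter on low values only through GC-PB. The count was again 19 higher and 1 lower without GC-PB replicate 1. On the deposited scale, where the median of all tested genes was -0.42, 17 members were higher and 5 lower, among 11.2% of all tested genes higher and 45.8% lower (57.0% in all). With median ratio scaling 22 were higher and 0 lower, among 18.7% and 17.5% of all tested genes (36.2% in all). Of the 19 genes called higher at equal totals, 17 kept the call and all 19 kept the sign on the deposited scale, and all 19 kept the call with median ratio scaling.

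**Figure D2:**
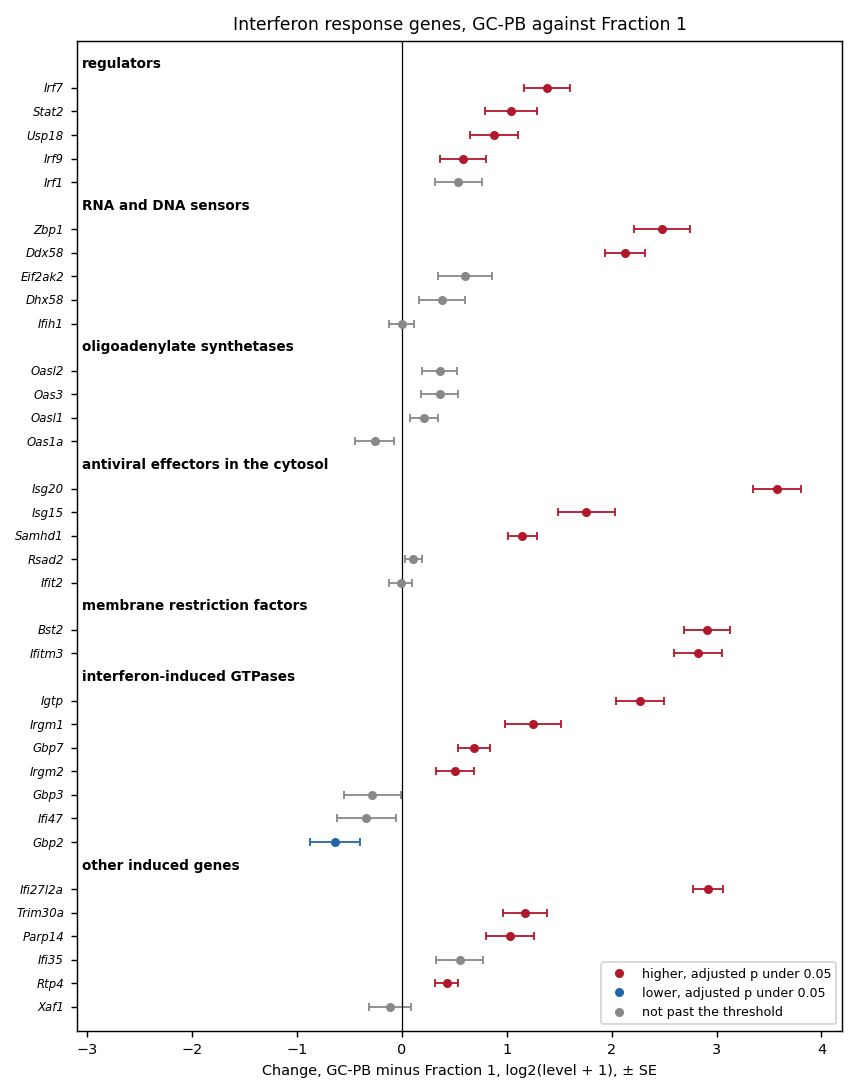
Change of each tested member in GC-PB against Fraction 1, on the log2(level + 1) scale with its SE, 3 libraries in each group. The largest changes were those of Isg20 (3.58), Ifi27l2a (2.92) and Bst2 (2.91), and Gbp2 (-0.64) was the lone member called lower.

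Among the regulators, 4 of 5 rose in GC-PB and 1 did not pass, beside 14.1% of all tested genes called higher. Irf7 (mm10 chromosome 7, 141262706 to 141266481) encodes the transcription factor that amplifies type I interferon production. Its level was 2.33, 4.33 and 3.72 in the GC-PB libraries, against 0.588, 0.86 and 0.616 in Fraction 1. It was 1.08, 0.692 and 0.657 in Fraction 2, 0.723, 1.05 and 1.76 in Fraction 3 and 1.12, 1.24 and 1.59 in DZ. All 3 GC-PB libraries were above all the others, replicate 1 by the least, and the group mean was 5.03-fold that of Fraction 1 (log2 change 1.38 ± 0.22, adjusted p = 3.8e-05). Stat2 (chromosome 10, 128270559 to 128292849), a factor activated by type I interferon, was 1.63, 2.56 and 2.07 in GC-PB, against 0.824, 0.322 and 0.369 in Fraction 1. It was 1.2, 1.61 and 1.09 in Fraction 2, 1.3, 2.1 and 2.47 in Fraction 3 and 2.4, 1.24 and 0.579 in DZ. Stat2 rose in GC-PB against Fraction 1 (1.04 ± 0.25, adjusted p = 0.00244), but its GC-PB libraries lay among those of Fraction 3 and DZ, so that Fraction 1 was the low group.

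Irf9 (chromosome 14, 55603571 to 55610030), the subunit that gives the Stat2 complex its DNA specificity, was 2.33, 2.17 and 3.72 in GC-PB, against 1.65, 1.4 and 1.35 in Fraction 1. Its level was 1.2, 1.38 and 1.2 in Fraction 2, 1.16, 1.93 and 1.41 in Fraction 3 and 1.28, 2.9 and 1.74 in DZ. The call for Irf9 was near the threshold (0.58 ± 0.22, adjusted p = 0.0407) and was lost without GC-PB replicate 3 (change 0.40) or without Fraction 1 replicate 1 (0.63), 2 (0.56) or 3 (0.55). On the deposited scale the change was 0.14 (adjusted p = 0.612). Usp18 encodes the protease that takes Isg15 off proteins and dampens the type I receptor. It was 0.931, 2.36 and 0.62 in GC-PB, against 0.118, 0.107 and 0.369 in Fraction 1, on 19 and 5 molecules, and it rose by a log2 change of 0.88. It was 0.722, 1.04 and 0.547 in Fraction 2, 0.289, 0.701 and 0.528 in Fraction 3 and 0.641, 0.138 and 0.145 in DZ, which overlap the GC-PB libraries. Irf1 (chromosome 11, 53770014 to 53778374), a factor induced early by interferon gamma, did not pass (0.54 ± 0.22, adjusted p = 0.0596). Its level was 6.29, 2.36 and 3.51 in GC-PB, against 1.76, 2.26 and 2.95 in Fraction 1. It was 2.53, 2.88 and 3.17 in Fraction 2, 2.46, 2.28 and 2.47 in Fraction 3 and 1.6, 2.07 and 1.74 in DZ. GC-PB replicate 1 was high for Irf1, while replicate 2 lay within the range of Fraction 1.

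Among the nucleic acid sensors, 2 of 5 rose and 3 did not pass, beside 14.1% of all tested genes called higher. Ddx58 (chromosome 4, 40203773 to 40239828) encodes RIG-I, a sensor of viral RNA. It was 3.49, 4.35 and 2.89 in GC-PB, against 0.118, 0 and 0 in Fraction 1, 0.241, 0.346 and 0 in Fraction 2, 0.289, 0 and 0.176 in Fraction 3 and 0, 0.414 and 0.434 in DZ. Fraction 1 rested on 1 molecule and GC-PB on 51.08, a ratio of 93.2 at equal totals with a 95% counting interval of 16.0 to 3750. Ddx58 rose by a log2 change of 2.13 ± 0.19, adjusted p = 1.27e-08, and every GC-PB library was above all 12 others. Zbp1 (chromosome 2, 173206612 to 173218923), a sensor of Z-form nucleic acid that can trigger cell death, was 12.3, 7.29 and 7.02 in GC-PB, against 0.706, 1.18 and 0.369 in Fraction 1. It was 0.602, 0.692 and 0.766 in Fraction 2, 0.145, 1.05 and 0.528 in Fraction 3 and 0.16, 0.828 and 1.16 in DZ. Zbp1 was 11.8-fold higher in the GC-PB mean (2.48 ± 0.27, adjusted p = 2.17e-07), with no overlap, and GC-PB replicate 1 was the high library.

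Eif2ak2, the RNA-activated kinase PKR that stops translation, was 0.775, 2.36 and 0.826 in GC-PB, against 0.588, 0.322 and 0.492 in Fraction 1. The groups did not overlap, but the change did not pass (0.60 ± 0.26, adjusted p = 0.0835). Dhx58, which encodes the RIG-I relative LGP2, averaged 0.696 ± 0.488 in GC-PB and 0.27 ± 0.134 in Fraction 1 (SD, n = 3 each; 0.38 ± 0.22, adjusted p = 0.194). Ifih1, the RNA sensor MDA5, had 1 molecule in GC-PB and 2 in Fraction 1. The sensors therefore divided, with Ddx58 and Zbp1 high in GC-PB and Ifih1 at the limit of detection in all groups.

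The cytosolic effectors divided in the same manner, with 3 of the 5 tested genes higher and 2 not passing. The share of all tested genes called higher was 14.1%. Isg20 (chromosome 7, 78913424 to 78920396) encodes an exonuclease that degrades RNA. It was 17.5, 17.9 and 19.6 in GC-PB, against 0.706, 0.645 and 0.492 in Fraction 1, 0.722, 0.807 and 0.219 in Fraction 2, 0, 1.05 and 0.352 in Fraction 3 and 0.641, 0.69 and 0.579 in DZ. The GC-PB libraries lay close together and far above the other 12. The mean was 18.3 ± 1.14 in GC-PB and 0.614 ± 0.11 in Fraction 1 (SD, n = 3 each), which is 29.8-fold (3.58 ± 0.23, adjusted p = 7.25e-11). Isg15 (chromosome 4, 156199424 to 156200818), a ubiquitin-like protein that is joined to viral and host proteins, was 1.4, 6.11 and 3.51 in GC-PB, against 0.118, 0.43 and 0.246 in Fraction 1. It was 0.12, 0.346 and 0.438 in Fraction 2, 0.145, 0.35 and 0.528 in Fraction 3 and 0.32, 0 and 0.289 in DZ. Isg15 was 13.9-fold higher in the GC-PB mean (1.76 ± 0.27, adjusted p = 2.64e-05) and varied widely within the group, with 6, 31 and 17 molecules in GC-PB replicates 1, 2 and 3. Samhd1, which breaks down the nucleotides that viruses need, rose by a log2 change of 1.15 ± 0.14, adjusted p = 1.26e-06 and is described with Ifi27l2a.

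Transcripts of the classical virus-induced effectors were almost absent. Ifit2, an RNA-binding inhibitor of translation, had 1 molecule in GC-PB and 2 in Fraction 1, and Rsad2, which encodes viperin, had 2 in GC-PB and 1.5 in Fraction 1. Neither passed. Of the untested effectors, Ifit1 had 2 molecules in GC-PB and none elsewhere, and Ifit3 had 1 in GC-PB and 1 in DZ. Mx1, the GTPase that blocks influenza virus, had 5 molecules in GC-PB, of which 4 were in replicate 2, and none elsewhere. Taking 3 molecules over the Fraction 1 libraries as the floor, the GC-PB mean of Mx1 was 2.94-fold that floor. The counting error of its 5 GC-PB molecules is not in this ratio. Mx2, which the gene annotation lists as a polymorphic pseudogene, had 1 molecule in GC-PB and 2 in Fraction 1. At this depth, 3 molecules over a group correspond to a level of 0.211 in GC-PB and 0.116 in Fraction 1, and differences below these levels were not detectable.

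The oligoadenylate synthetases make the messenger that activates the RNA-cutting enzyme RNase L, and none of the 4 tested genes passed by limma in GC-PB against Fraction 1 (0 at an unadjusted p under 0.05, and 1 called higher with voom weights). In that comparison limma called 36.3% of all tested genes. Over the 5 groups the F test called Oas1a (adjusted p = 0.007) and 45.3% of all tested genes. Their summed level, with Oas2 included, was 1.14 to 1.51 in GC-PB and 0.471 to 0.914 in Fraction 1. It was 0.547 to 1.26 in Fraction 2, 1.45 to 2.64 in Fraction 3 and 1.38 to 1.92 in DZ. Oas2 was at 0 in all 15 libraries. Oas1a averaged 0.177 ± 0.213 in GC-PB, 0.399 ± 0.18 in Fraction 1, 0.618 ± 0.173 in Fraction 2, 1.12 ± 0.343 in Fraction 3 and 0.834 ± 0.164 in DZ (SD, n = 3 each), an order unlike that of the genes that rose in GC-PB. Its change in GC-PB against Fraction 1 was -0.26 ± 0.19, adjusted p = 0.328. Oasl1, Oasl2 and Oas3 stood on 4, 7 and 5.5 molecules in GC-PB, and their changes were 0.21, 0.36 and 0.36.

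Both tested membrane restriction factors were far higher in plasmablasts than in Fraction 1, beside 14.1% of all tested genes called higher. Bst2 (chromosome 8, 71534255 to 71537456) encodes tetherin, which holds budding virus at the cell surface. It was 20.3, 14.6 and 9.91 in GC-PB, against 1.06, 1.4 and 0.739 in Fraction 1, 0.361, 0.577 and 0.547 in Fraction 2, 0.434, 0.35 and 0.352 in Fraction 3 and 0.16, 0.276 and 0.289 in DZ. GC-PB replicate 3 was the lowest of its group and still above all 12 other libraries. Bst2 was 14.0-fold higher in the GC-PB mean (2.91 ± 0.22, adjusted p = 9.57e-10), and its Fraction 1 libraries were all above those of Fraction 2, a step that did not pass (0.46 ± 0.22, adjusted p = 0.238). Ifitm3 (chromosome 7, 141009586 to 141010770), which blocks virus entry at endosomes, was 10.9, 10 and 4.96 in GC-PB, against 0.353, 0.215 and 0.369 in Fraction 1. It was 0.241, 0 and 0.109 in Fraction 2, 0, 0.175 and 0 in Fraction 3 and 0, 0.138 and 0.145 in DZ. The mean was 27.7-fold higher in GC-PB (2.82 ± 0.23, adjusted p = 2.35e-09), again with replicate 3 the lowest. Ifitm2, its neighbour in the same family, had 0 molecules in GC-PB and 3 in Fraction 1 and was not tested.

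**Figure D3:**
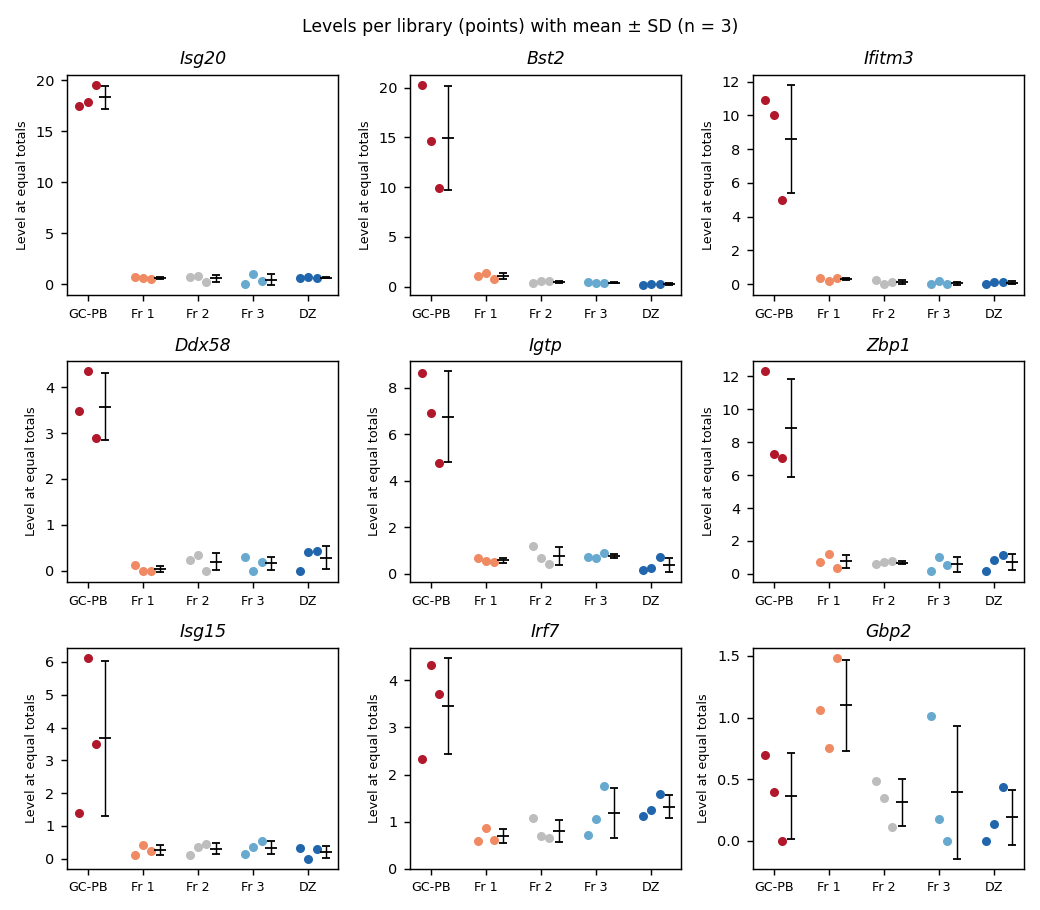
Level at equal library totals of 8 members that rose in GC-PB and of Gbp2, with 1 point for each library, the mean ± SD (n = 3) beside the points, and groups from GC-PB on the left to DZ on the right. The 3 GC-PB points of Isg20 (17.5 to 19.6) and of Bst2 (9.91 to 20.3) lie above all other points.

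Of the 7 tested interferon-induced GTPases, 4 were called higher and 1 lower, and 2 did not pass. The shares over all tested genes were 14.1% higher and 22.3% lower. Gbp7, among the 4, passed the filter on low values only through GC-PB. Some proteins of these families, though not all, bind to the vacuoles of bacteria and parasites and help to break them open. Igtp (chromosome 11, 58199556 to 58207591), also called Irgm3, was 8.62, 6.9 and 4.75 in GC-PB, against 0.706, 0.537 and 0.492 in Fraction 1, 1.2, 0.692 and 0.438 in Fraction 2, 0.723, 0.701 and 0.88 in Fraction 3 and 0.16, 0.276 and 0.723 in DZ. All GC-PB libraries were above the other 12, and the mean was 11.7-fold that of Fraction 1 (2.27 ± 0.23, adjusted p = 6.74e-08). Irgm1 was 1.86, 5.33 and 4.15 in GC-PB, against 0.599, 0.83 and 1.35 in Fraction 1, 1.46, 0.472 and 0.339 in Fraction 2, 0.162, 0.35 and 0.088 in Fraction 3 and 0.176, 0.428 and 0.23 in DZ. It rose by a log2 change of 1.25, with no overlap. Irgm2 was 0.466, 1.38 and 0.413 in GC-PB, against 0.376, 0.107 and 0.123 in Fraction 1, and its call (0.51 ± 0.18, adjusted p = 0.0318) was lost without GC-PB replicate 2 (0.27), Fraction 1 replicate 2 (0.45) or Fraction 1 replicate 3 (0.46), and on the deposited scale (adjusted p = 0.0765). Irgm2 was 0.241, 0.231 and 0.109 in Fraction 2, 0.723, 0.526 and 0.352 in Fraction 3 and 0.48, 0.322 and 0.362 in DZ, so that GC-PB did not stand apart from Fraction 3 and DZ.

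Of the tested guanylate-binding proteins, Gbp7 was called higher, Gbp2 was called lower and Gbp3 did not pass. Both calls have limits, so that no difference of direction is drawn from them. Gbp7 was 1.4, 0.788 and 0.207 in GC-PB, against 0, 0.107 and 0.123 in Fraction 1, and 0 in the 9 other libraries. It rests on 11 molecules in GC-PB and 2 in Fraction 1, a ratio of 10 at equal totals with a 95% counting interval of 2.19 to 93.2, and it was called higher (log2 change 0.69). It was above 0 in 5 libraries and entered the test only because the 3 GC-PB libraries, where it was high, were among them, so its call is no support for the count of members that were higher. Testing only genes above 0 in at least 6 libraries left Gbp7 out and gave 18 higher and 1 lower of 32 members. Gbp2 (chromosome 3, 142620602 to 142638008), which is named because it was the lone member called lower, was 0.699, 0.394 and 0 in GC-PB, against 1.06, 0.752 and 1.48 in Fraction 1. It was 0.482, 0.346 and 0.109 in Fraction 2, 1.01, 0.175 and 0 in Fraction 3 and 0, 0.138 and 0.434 in DZ, so that Fraction 1 had the highest mean and 1 library of Fraction 3 lay in its range. The call for Gbp2 (-0.64 ± 0.24, adjusted p = 0.0409) was lost without GC-PB replicate 2 (-0.67), GC-PB replicate 3 (-0.43), Fraction 1 replicate 1 (-0.64) or Fraction 1 replicate 3 (-0.51). It was also lost with median ratio scaling (adjusted p = 0.0827). Gbp3 averaged 1.02 ± 0.752 in GC-PB and 1.37 ± 0.347 in Fraction 1 (SD, n = 3 each; -0.28 ± 0.27, adjusted p = 0.468). Ifi47, another GTPase of the family, was 2.79, 4.53 and 1.03 in GC-PB, against 2.82, 3.22 and 4.31 in Fraction 1, and did not pass (-0.34 ± 0.28, adjusted p = 0.387). Ifi47 was 4.09, 1.73 and 2.3 in Fraction 2, 2.03, 1.4 and 1.41 in Fraction 3 and 2.08, 2.0 and 2.17 in DZ. Iigp1, the best studied GTPase of this group, had 1 molecule in all libraries together, in Fraction 1.

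Of the other induced genes, 4 of 6 rose, beside 14.1% of all tested genes called higher. Trim30a encodes an E3 ligase that restrains innate signalling. It was 8.5, 13.0 and 9.29 in GC-PB, against 4.94, 2.58 and 4.62 in Fraction 1, 3.61, 6.52 and 4.43 in Fraction 2, 4.78, 6.92 and 5.64 in Fraction 3 and 5.61, 7.04 and 7.59 in DZ, and rose by a log2 change of 1.17. All GC-PB libraries were above all others. Parp14, an ADP-ribosyltransferase that acts with Stat6 in B cells, was 3.03, 3.35 and 2.69 in GC-PB, against 0.471, 1.93 and 0.739 in Fraction 1, and rose by 1.03. It was 2.17, 2.42 and 2.08 in Fraction 2, 2.03, 2.1 and 1.41 in Fraction 3 and 1.76, 1.66 and 3.04 in DZ, where 1 DZ library reached into the GC-PB range. Rtp4, a chaperone of membrane receptors, had 2, 2 and 1 molecules in the GC-PB libraries, against none in Fraction 1. Its GC-PB mean was 3.07-fold the level that 3 molecules over the Fraction 1 libraries would give. The counting error of the GC-PB molecules of Rtp4 is not in this ratio. The level of Rtp4 was 0.466, 0.394 and 0.207 in GC-PB, 0, 0 and 0.109 in Fraction 2, 0.145, 0.35 and 0.352 in Fraction 3 and 0.32, 0.138 and 0.145 in DZ, so that GC-PB overlapped Fraction 3 and DZ.

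Ifi35, a regulator of innate signalling, was 3.26, 4.33 and 2.89 in GC-PB, against 2.82, 1.61 and 1.85 in Fraction 1, with no overlap but no call (0.55 ± 0.22, adjusted p = 0.0594). Xaf1, an inducer of cell death that binds the inhibitor Xiap, was 4.83, 8.87 and 9.62 in GC-PB, against 9.11, 6.54 and 9.04 in Fraction 1, 7.67, 10.4 and 7.1 in Fraction 2, 6.32, 5.54 and 5.61 in Fraction 3 and 9.77, 7.37 and 9.36 in DZ. Xaf1 was well detected in all groups and its GC-PB change did not pass (-0.11 ± 0.20, adjusted p = 0.723). Values of Ifi27l2a, Trim30a, Irgm1, Irgm2, Ddx58, Xaf1, Ifi47, Eif2ak2, Oas1a, Oas3 and Rsad2 were not whole multiples of the library constant in at least 1 library, and reads of these genes may be shared with copies, so that their levels are less certain.

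Ifi27l2a (chromosome 12, 103442167 to 103443680), a small mitochondrial protein of the ISG12 family, had the smallest p of all members over the 5 groups. It was 70.1, 88.1 and 81.9 in GC-PB, 9.35, 8.49 and 11.3 in Fraction 1, 12.2, 12.1 and 9.74 in Fraction 2, 16.6, 24.1 and 18.8 in Fraction 3 and 26.6, 30.2 and 25.5 in DZ. GC-PB stood far above the rest, DZ was next, and Fractions 1 and 2 overlapped at the bottom. The mean was 80.0 ± 9.13 in GC-PB and 9.7 ± 1.42 in Fraction 1 (SD, n = 3 each), which is 8.25-fold (2.92 ± 0.14, adjusted p = 9.21e-13). Over the 15 libraries the genes whose log2 levels followed it most closely were Serp1 (Pearson r = 0.968), Txndc11 (0.967) and Trp53inp1 (0.963). These points share their libraries and fall into groups, so that r describes the likeness only. Serp1 averaged 69.5 in GC-PB, 16.2 in Fraction 1, 23.1 in Fraction 2, 26.1 in Fraction 3 and 31.1 in DZ.

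Samhd1 (chromosome 2, 157097533 to 157135265) had its low point in Fraction 1. It was 13.7, 12.6 and 17.3 in GC-PB, 6.82, 4.51 and 6.77 in Fraction 1, 10.8, 10.7 and 11.6 in Fraction 2, 16.4, 15.9 and 18.0 in Fraction 3 and 20.8, 23.0 and 19.8 in DZ. The 4 germinal centre groups were ordered with no overlap between neighbours, DZ the highest and Fraction 1 the lowest, and GC-PB lay between Fraction 1 and DZ. The GC-PB mean was 2.41-fold that of Fraction 1.

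The light zone cells that are Bcl6-low were then set against those that are Bcl6-high at the same CD69 gate. By limma 0 of the 34 tested members were higher and 1 was lower in Fraction 1 than in Fraction 2, in a comparison that called 3.79% of all tested genes higher and 5.25% lower (9.03% in all). At an equal share of the total Samhd1 fell in Fraction 1 (-0.79 ± 0.14, adjusted p = 0.00107; -0.70 with median ratio scaling), but on the deposited scale its change was 0.52 (adjusted p = 0.0132), where the median over all tested genes was 0.64. On the deposited scale 17 members were called higher and 0 lower, among 54.7% of all tested genes called higher and 0.563% lower (55.3% in all). In 14 tested members the sign differed between these scales. The median change of the tested members was -0.03 at equal totals, against -0.04 for all tested genes. Members without overlap between the groups were 2 higher (Bst2 and Gbp2) and 5 lower (Stat2, Dhx58, Usp18, Parp14 and Samhd1), and 11.9% and 16.3% of all tested genes were so separated.

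No other member passed in Fraction 1 against Fraction 2. Among members with a mean level of at least 1 in Fraction 1 or 2, the largest changes without a call were those of Parp14 (-0.72 ± 0.23, adjusted p = 0.0566), Gbp2 (0.67 ± 0.24, adjusted p = 0.0872), Dhx58 (-0.66 ± 0.22, adjusted p = 0.0648) and Stat2 (-0.62 ± 0.25, adjusted p = 0.145). Dhx58 was 0.118, 0.322 and 0.369 in Fraction 1, against 0.602, 1.38 and 1.09 in Fraction 2. The regulators Irf1 (-0.23 ± 0.22, adjusted p = 0.648), Irf7 (-0.10 ± 0.22, adjusted p = 0.875) and Irf9 (0.12 ± 0.22, adjusted p = 0.83) moved little. Usp18, the regulator below a mean level of 1 in both fractions and without overlap, averaged 0.198 in Fraction 1 and 0.769 in Fraction 2. It stood on 5 and 20 molecules there and did not pass.

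Within the Bcl6-high light zone, Fraction 2 differs from Fraction 3 by the activation marker CD69. Here 0 of 34 tested members were higher and 1 was lower in Fraction 2, where 0.438% of all tested genes were called higher and 0.25% lower (0.688% in all). Ifi27l2a fell in Fraction 2 (-0.75 ± 0.14, adjusted p = 0.0148), but it did not pass when Fraction 2 replicate 3 (-0.65) or Fraction 3 replicate 2 (-0.60) was left out, or on the deposited scale (-0.35, adjusted p = 0.291). Among members with a mean level of at least 1 in Fraction 2 or 3, the largest changes without a call were those of Samhd1 (-0.56 ± 0.14, adjusted p = 0.0785), Ifi47 (0.46 ± 0.28, adjusted p = 0.585), Xaf1 (0.44 ± 0.20, adjusted p = 0.396) and Ifi35 (-0.41 ± 0.22, adjusted p = 0.513). Irgm1, below that level in both fractions, had a change of 0.50 (adjusted p = 0.525). The regulators Irf1 (0.18 ± 0.22, adjusted p = 0.863), Irf7 (-0.25 ± 0.22, adjusted p = 0.782), Irf9 (-0.13 ± 0.22, adjusted p = 0.904) and Stat2 (-0.35 ± 0.25, adjusted p = 0.689) did not pass. Without overlap 2 members were higher in Fraction 2 (Irf1 and Xaf1) and 5 lower (Oasl1, Ifi27l2a, Rtp4, Irgm2 and Samhd1), against 8.59% and 8.38% of all tested genes.

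The light zone was set against the dark zone with the mean of Fractions 2 and 3, which share the reporter and the presence of Ddx3y with DZ. By limma 0 of 34 tested members were higher and 2 were lower in the light zone, where 1.04% of all tested genes were called higher and 1.37% lower (2.4% in all). Ifi27l2a fell (-0.83 ± 0.12, adjusted p = 0.000274; deposited -0.70). Samhd1 fell as well (-0.60 ± 0.12, adjusted p = 0.00804), but its call was lost without DZ replicate 2 (-0.54) and on the deposited scale (-0.47, adjusted p = 0.178). Among members with a mean level of at least 1 in Fraction 2, Fraction 3 or DZ, Irf1 (0.37 ± 0.19, adjusted p = 0.427), Trim30a (-0.31 ± 0.18, adjusted p = 0.517), Xaf1 (-0.30 ± 0.17, adjusted p = 0.497) and Irf9 (-0.29 ± 0.19, adjusted p = 0.565) had the largest changes without a call, and Irf7 (-0.24 ± 0.19, adjusted p = 0.686) and Stat2 (0.17 ± 0.22, adjusted p = 0.815) did not pass. Below that level Igtp (0.36, adjusted p = 0.461) and Usp18 (0.33, adjusted p = 0.539) did not pass either. Groups did not overlap for Irf1 and Bst2 upward and for Ifi27l2a and Samhd1 downward, against 3.06% and 3.24% of all tested genes. Irf1 thus had every library of Fractions 2 and 3 above every DZ library while its change did not pass.

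**Figure D4:**
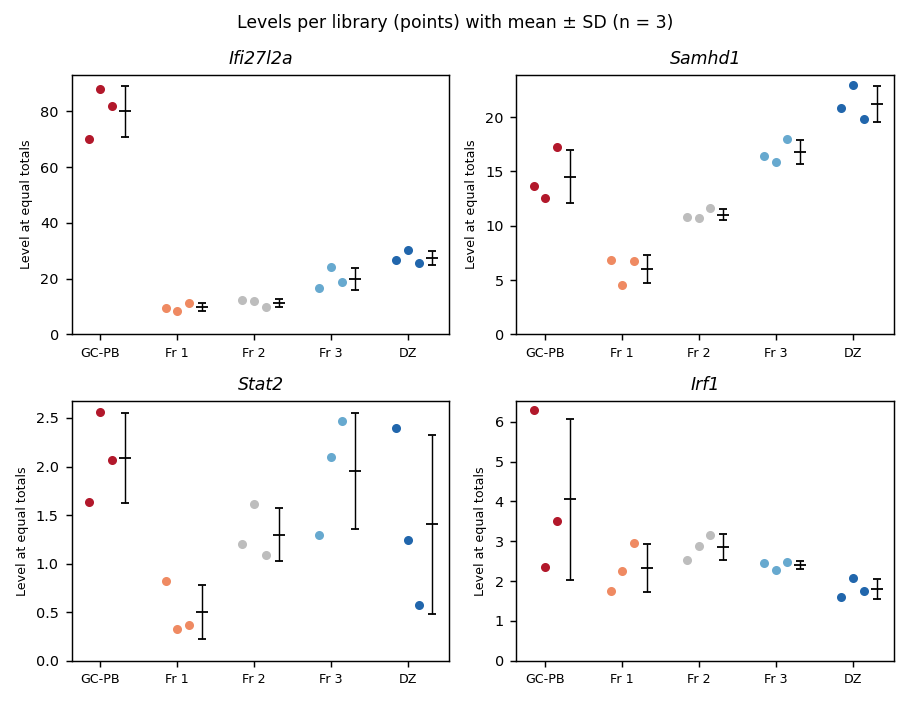
Level at equal library totals of Ifi27l2a, Samhd1, Stat2 and Irf1, with 1 point for each library, the mean ± SD (n = 3) beside the points, and groups from GC-PB on the left to DZ on the right. Samhd1 is 4.51 to 6.82 in Fraction 1 and 19.8 to 23.0 in DZ, with Fractions 2 and 3 between them, and Ifi27l2a is 8.49 to 11.3 in Fraction 1 and 25.5 to 30.2 in DZ.

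The rest of the pathway was followed with 4 further lists of genes. Of 17 interferon receptor and Jak-Stat genes, 2 rose and 8 fell in GC-PB against Fraction 1, beside 14.1% of all tested genes higher and 22.3% lower. Ifnar2, a chain of the type I receptor, was 7.45, 2.76 and 3.72 in GC-PB, against 0.471, 0.107 and 0.616 in Fraction 1, 0.843, 0.461 and 0.547 in Fraction 2, 0.579, 0.35 and 0 in Fraction 3 and 0.801, 0.552 and 0.579 in DZ. It rose (1.94 ± 0.26, adjusted p = 3.96e-06) with GC-PB replicate 1 the highest library, while the other chain, Ifnar1, did not pass (0.56 ± 0.22, adjusted p = 0.0572). The kinase Jak1 was 2.79, 2.96 and 1.86 in GC-PB, against 16.6, 13.0 and 19.9 in Fraction 1, and fell (-2.30 ± 0.15, adjusted p = 1.67e-10). The kinase Tyk2 rose (0.84), a call not kept on the deposited scale (0.57, adjusted p = 0.0678). Ptpn6, the phosphatase SHP-1, fell (-2.21), as did Irf2bp2 (-1.72) and Stat3 (-1.06).

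The interferon gamma receptor chains fell in GC-PB, Ifngr1 with 0.233, 0.394 and 0.62 in GC-PB, against 1.41, 1.72 and 1.6 in Fraction 1 (-0.87 ± 0.19, adjusted p = 0.000823). Ifngr2 averaged 0.744 ± 0.679 in GC-PB and 2.14 ± 0.434 in Fraction 1 (SD, n = 3 each; -0.92 ± 0.28, adjusted p = 0.0137), and lost its call without GC-PB replicate 1 (-0.58) or Fraction 1 replicate 3 (-0.85).

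Of 19 nucleic acid sensors and adaptors, 4 rose and 5 fell in GC-PB against Fraction 1, which is near the shares over all tested genes (14.1% higher and 22.3% lower). Ifi204, a DNA sensor (1.34), Tlr7, an endosomal RNA sensor (1.08), the adaptor Ticam1 (1.07) and Tmem173, which encodes STING (0.86), rose. The ratio for Ifi204, on 24.83 molecules in GC-PB and 1.75 in Fraction 1, was 25.9 with a 95% counting interval of 5.69 to 199, and the call for Tmem173 was not kept on the deposited scale (0.42, adjusted p = 0.107). Myd88, the adaptor of Tlr7 and Tlr9, fell (-1.75), as did the factor Irf5 (-0.81) and the kinase Ikbke (-0.53). Mavs, the adaptor of Ddx58, fell (-0.79) but lost its call without GC-PB replicate 3 (-0.65). Irf3 fell (-0.64) but lost its call without Fraction 1 replicate 1 (-0.55) and with median ratio scaling (-0.43, adjusted p = 0.0952). No interferon transcript was detected. Of 22 ligand symbols 18 had a row, and all 18 were at 0 in all 15 libraries, which together hold 4050650 molecules. A count of 0 allows up to 3 molecules over the 15 libraries, a level of 0.0286 for each gene, and transcripts in other cells of the lymph node were not measured.

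Of 60 further interferon-induced genes that could be tested, 17 rose and 8 fell in GC-PB against Fraction 1, beside 14.1% of all tested genes higher and 22.3% lower. The GTPase Gvin1 averaged 13.0 ± 2.41 in GC-PB and 0.45 ± 0.121 in Fraction 1 (3.25). Pml, the scaffold of nuclear bodies, averaged 9.81 ± 1.18 in GC-PB and 0.277 ± 0.312 in Fraction 1 (3.10). Ly6e, a surface protein that restricts virus entry, averaged 68.9 ± 1.36 in GC-PB and 21.2 ± 3.27 in Fraction 1 (1.66), each with n = 3 and SD. Lgals3bp, a secreted glycoprotein, rose on 118 molecules in GC-PB and 3 in Fraction 1, a ratio of 71.8 with a 95% counting interval of 24.0 to 353. The nuclear protein Sp110 fell (-1.43), as did the proteasome activator subunits Psme1 (-0.83) and Psme2 (-0.73). The share that rose was 19 of 34 among the tested members and 17 of 60 here. Gbp7 among the 19 and Gbp10 among the 17 were each above 0 in 5 libraries. Both passed the filter on low values only through GC-PB, so their calls are no support for these shares.

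**Figure D5:**
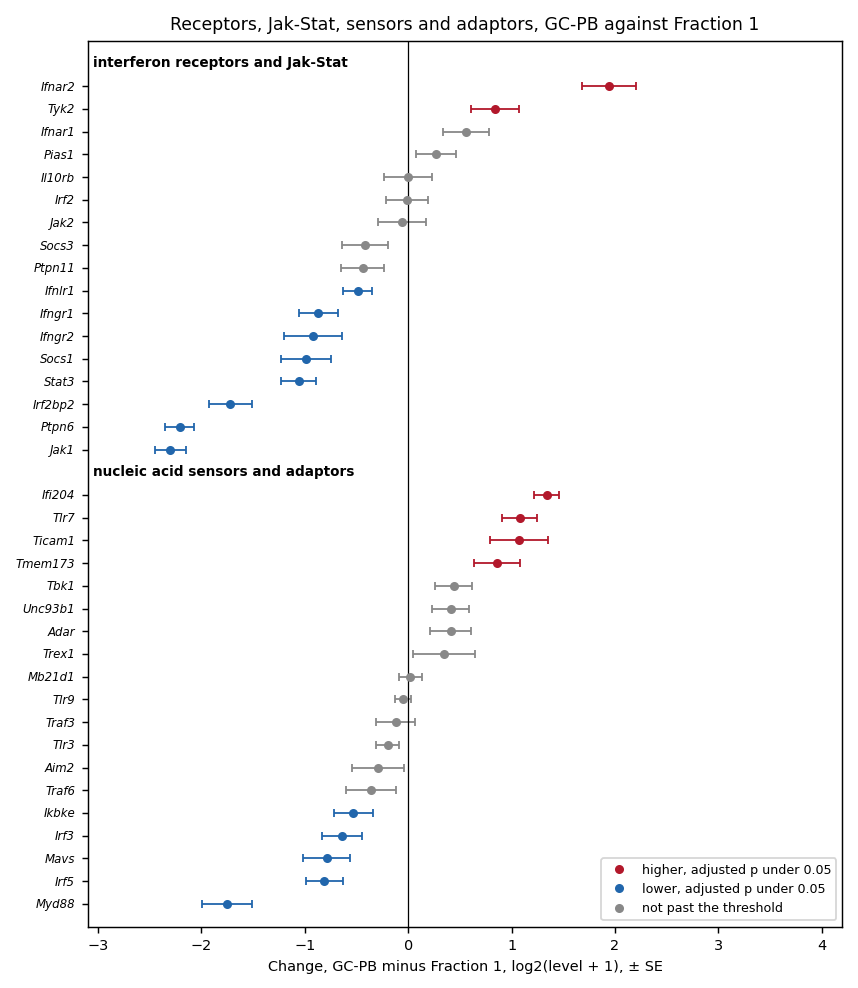
Change in GC-PB against Fraction 1 of the receptor and Jak-Stat genes and of the sensors and adaptors, on the log2(level + 1) scale with its SE, 3 libraries in each group. Ifnar2 (1.94) lies to the right of 0 and Jak1 (-2.30) and Ptpn6 (-2.21) to the left.

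The same lists were then read within the germinal centre. In Fraction 1 against Fraction 2, 0 of 17 receptor and Jak-Stat genes were higher and 2 lower, Ptpn6 (-0.75) and Ifngr1 (-0.85), beside 3.79% of all tested genes higher and 5.25% lower. No sensor or adaptor passed by limma (2 higher and 2 lower at an unadjusted p under 0.05, and 1 each way with voom weights), and of the 60 further induced genes 2 were higher, Psme2 (0.72) and Slfn2 (1.16), and 5 lower, among them Ly6e (-0.59), Shisa5 (-0.92) and Helz2 (-0.76). The calls for Shisa5 (-0.73) and Helz2 (-0.62) were lost without Fraction 1 replicate 1, and that for Slfn2 without any of 4 libraries (1.04 to 1.15). On the deposited scale these changes were 0.62 for Ptpn6, 0.20 for Ifngr1, 2.14 for Psme2, 2.48 for Slfn2, 0.83 for Ly6e, 0.34 for Shisa5 and 0.37 for Helz2. Each of these lower calls thus had the opposite sign there. Phf11b and Parp10 were also called lower, and their changes on that scale are not given here. In Fraction 2 against Fraction 3 no gene of the lists passed by limma, where 0.688% of all tested genes did. At an unadjusted p under 0.05, 3 of the 96 genes were higher and 8 lower, and voom weights called 0. In Fractions 2 and 3 against DZ Ptpn6 (0.61) and Phf11b (0.80) were called higher, beside 1.04% of all tested genes, but Ptpn6 lost its call without DZ replicate 1 (0.50) and Phf11b without any of 6 libraries (0.67 to 0.81). Ifnar1, Ifnar2, Ifngr1 and Ifngr2 did not pass in this comparison, with changes of 0.07, -0.19, 0.55 and 0.27.

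Markers of other cells were checked beside these results. The 4 natural killer cell markers were at 0 in all libraries. Macrophage and monocyte markers summed to 0.207 to 0.985 in GC-PB and 0.118 to 0.492 in Fraction 1, with 3 of 9 at 0 in all libraries. Plasmacytoid dendritic cell markers summed to 11.5 to 15.1 in GC-PB and 8.74 to 11.9 in Fraction 1, most of it Tcf4, which B cells also express, while Siglech and Klk1 were at 0 in GC-PB and Ccr9 and Cox6a2 had 1 molecule each there and 0 in Fraction 1. Dendritic cell markers summed to 2.7 to 3.39 in GC-PB and 1.44 to 1.82 in Fraction 1, with no overlap, and to 2.17 to 4.43 in the 9 other libraries. Xcr1 rose (2.44 in GC-PB and 0.348 in Fraction 1) and made up most of the GC-PB sum but not of the Fraction 1 sum. Itgax, Clec9a and Zbtb46 were at 0 in GC-PB. Flt3, the remaining gene of that list, was called over the 5 groups by the F test (adjusted p = 0.000191), and its levels are not given here. T cell markers summed to 9.71 to 11.4 in GC-PB and 3.44 to 5.66 in Fraction 1, most of the GC-PB sum being Cd28 (9.9 in GC-PB and 0.0784 in Fraction 1), which plasma cells are known to express, and Cd3e and Cd4 were at 0 in all libraries, while Cd3g had 2 molecules in GC-PB and 0 in Fraction 1. Other T cell markers went the opposite way to Cd28. Lck averaged 0.341 in GC-PB and 3.98 in Fraction 1, with no overlap, and Thy1 had 0 and 3 molecules. Naive B cell markers summed to 6.06 to 16.8 in GC-PB and 12.8 to 16.5 in Fraction 1, a sum whose members also went in opposite directions. Fcer2a averaged 0.915 in GC-PB and 14.1 in Fraction 1, and Klf2 averaged 8.81 in GC-PB and 0.686 in Fraction 1. The part of these signals in the results was not tested.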

How the data were processed

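RNA of 100 sorted cells was measured in each of 15 libraries. Per the labels' protocols, ERCC spike-in RNA was added to every tube and cDNA was tagged with molecular barcodes from the poly(A) end, and the submitters' processing notes name TopHat2 (version not given in the sources used here) and the mm10 build. The deposited table holds 1 signal value per gene and library, whose scaling is not stated, and no column was left unmapped. In each library 91.0% to 92.6% of the values above 0 were whole multiples, within 0.02, of the most frequent value, which is taken here as 1 molecule. Because the authors' values are a signal and not counts, limma 3.58.1 in R 4.3.3 was fitted with an intensity trend to log2(level + 1), with 5 group means over all 15 libraries and levels at equal totals. Tested genes were above 0 in at least 3 libraries, and p was adjusted by Benjamini-Hochberg over all 11190, with calls under 0.05. A fold change on this scale understates the change of low genes. Counting intervals cover counting error only. The fit was tested on simulated data, drawn as normal log2 values with changes added only to genes of higher level. That test does not cover members with few molecules.

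The members, the pathway lists and the tests were chosen with earlier results of these data known. Changes with SE and p are given for all called members where there are 10 or fewer and otherwise for the 10 with the smallest p, for Irf1, Irf7, Irf9 and Stat2, and for up to 4 uncalled members with the largest change and a mean of at least 1. From each other list up to 4 called genes with the smallest p were taken, with the 4 receptor chains. A gene of the receptor and Jak-Stat list and a germinal centre marker are not reported here and were left out of the counts and sums of those lists. Usp18, Gbp2, Tyk2, Stat3, Ticam1, Tmem173, Mavs, Irf3, Ikbke, Sp110, Psme1, Slfn2 and other genes named outside this rule were chosen after their values were seen. Positions are from GENCODE vM21. The figures plot the values in the text and were drawn with matplotlib 3.10.9 in Python 3.11.15. The alternatives were the deposited scale, median ratio scaling, pseudocounts of 0.5 and 2, other filters, a replicate block, leaving out each library, and voom weights, the last of these added after the values were seen.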

Additional observations from a re-analysis of the deposited data

How the results depend on the processing

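The members called in GC-PB against Fraction 1 numbered 20, and 18 to 22 in every setting run. In that comparison 36.3% of all tested genes were called, 57.0% on the deposited scale and 36.2% with median ratio scaling. The F test called 19 members, and 17 to 26 in every setting, where the main fit called 45.3% of all tested genes. For the other settings of these counts the share over all tested genes is not given here. In Fraction 1 against Fraction 2 the count of 1 became 17 on the deposited scale, all of them higher, where 55.3% of all tested genes were called, 2 with genes above 0 in at least 6 libraries and 3 with voom weights, and was 1 to 2 with a library left out. In Fraction 2 against Fraction 3 the count of 1 became 0 on the deposited scale and 2 with voom weights, and was 0 to 1 with a library left out. In Fractions 2 and 3 against DZ the count of 2 became 1 on the deposited scale and was 1 to 2 with a library left out. On the deposited scale, changes in Fraction 1 against Fraction 2 had the opposite sign for Samhd1 (0.52), Irf1 (0.91), Irf7 (0.67), Stat2 (0.01) and Parp14 (0.14), as did that of Irf9 in Fraction 2 against Fraction 3 (0.11). With a library left out, the change of Ifi47 in GC-PB against Fraction 1 ranged from -0.67 to 0.05 (without GC-PB replicate 3), that of Irf7 in Fraction 1 against Fraction 2 from -0.17 to 0.01 (without Fraction 2 replicate 1) and that of Stat2 in Fractions 2 and 3 against DZ from -0.10 (without DZ replicate 3) to 0.46. On the deposited scale the median over all tested genes is 0.64 in Fraction 1 against Fraction 2, and the cause of the other changes was not tested. With the replicate number as a block the counts were 21, 1, 1, 2 and, for the F test, 20. No pairing by replicate number was seen. Correlations of deviations were -0.0644 to 0.0516 between same-numbered libraries and -0.0547 to 0.0693 between differently numbered ones. With 3 libraries in each group, these values cannot show that the libraries are unpaired. Depth limits the 9 tested members with under 50 molecules over all libraries.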
